A study of Mus musculus with 6 samples.

Results

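The genes described here are 8 transcription factors from a list for gut mesenchyme and axial patterning, Hox genes left out. The members are Nkx2-3 (NK homeobox), Foxf1, Foxf2 and Foxl1 (forkhead), Barx1 (Bar homeobox), Tbx3 (T-box), and Meis1 and Meis2 (TALE homeobox). They were followed in distal and proximal colon of untreated female C57BL/6J mice, an inbred strain; no age is given. There were 3 libraries labelled distal and 3 labelled proximal, each hybridised to 1 array, and the design text has 3 animals giving tissue from either end. Total RNA came from whole tissue, so epithelium, muscle and other cells were measured together. The 8 genes are named from a fixed list and not by a rule on their values, but the list was chosen with earlier results of these data known. Of 18193 genes with a probe set of their own on the array, all 8 were measured, by 21 probe sets in all. A gene is represented by its probe set with the highest mean over the 6 arrays. Values are on the log2 scale of the deposited data, where 1 unit is a 2-fold change, and every difference is distal minus proximal.

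In the embryonic gut, hedgehog proteins made by the epithelium signal to the mesenchyme beneath it, where the Foxf genes and Foxl1 are among their targets. Mesenchymal cells in turn send BMP and Wnt ligands and Wnt antagonists back to the epithelium. Position along the gut is set in part by Hox proteins, which bind DNA with TALE partners of the Meis and Pbx families. In the adult intestine, Foxl1 marks telocytes and related stromal cells under the crypts.

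A pair of libraries went against their labels, so each result is given with and without them. Hoxb13, which patterns the most posterior trunk, stood at 13.78, 13.29 and 6.65 in distal-labelled libraries 1, 2 and 3, against 13.39, 6.53 and 6.48 in proximal-labelled libraries 1, 2 and 3. Over all genes, the library labelled proximal 1 correlated at 0.993 with distal 1 and at 0.977 with proximal 2. For the library labelled distal 3 the values were 0.974 with distal 1 and 0.996 with proximal 2. The 6-library fit keeps the labels, and the 4-library fit leaves out the libraries labelled distal 3 and proximal 1 and puts them in no group. That choice rests on these same data, so evidence from its p-values is overstated and concerns the 4 libraries alone. Array medians lay between 7.90 and 8.02, and with 6 arrays precision is limited. Pancreas markers averaged 12.12 and 12.08 in the libraries labelled distal 1 and proximal 1, against 7.51 to 7.96 in the other 4. Of the colon markers, 9 were measured, and their mean lay between 13.69 and 14.10 in every library. The 9 stomach markers averaged 5.36 to 5.72.

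Among the 8 genes, Tbx3 had the widest span, 2.16 units, wider than that of 97.4% of genes, and it was lower in distal tissue once the libraries at odds with their labels were left out. Meis1 and Meis2 had no overlap between labels, with distal values above proximal ones, but did not pass, and their probe sets differed among themselves. Nkx2-3, Foxf1, Foxf2, Foxl1 and Barx1 did not pass in either fit. As labelled, limma called 0 of the 8 genes, beside 0 of all 18193 genes (0%, smallest adjusted p = 0.824). At an unadjusted p of 0.05 there were 1 of 8 and 554 of 18193. In the 4-library fit limma called 1 of the 8, Tbx3, beside 3494 of all genes (19.2%), of which 2092 were lower (11.5%) and 1402 higher (7.71%) in distal libraries. Of these calls 40.1% were higher in distal libraries, a share of 50.3% with quantile normalization and 54.7% with median centring. The median difference of the 8 genes was -0.172 in that fit, and that of all genes -0.045.

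**Figure D1:**
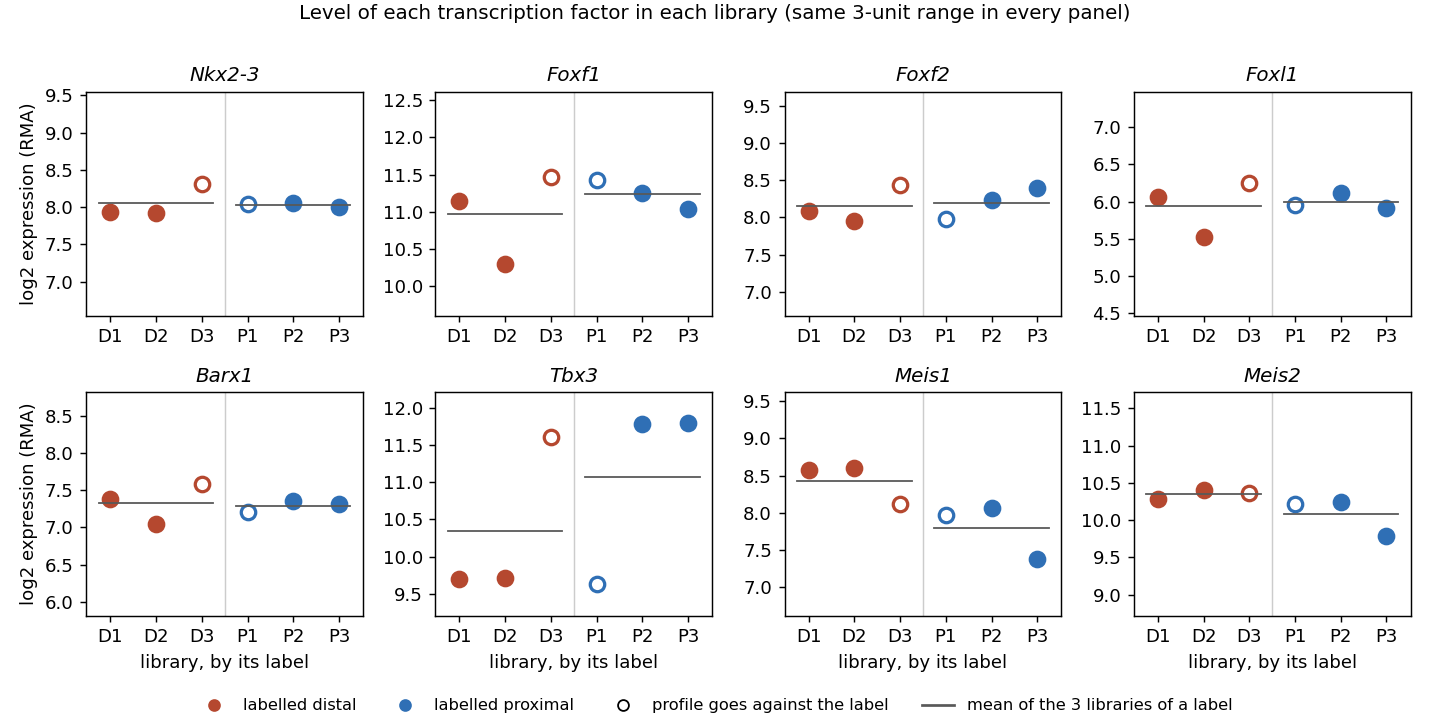
Level of the 8 transcription factors on the log2 scale (vertical axis) in the 6 libraries (horizontal axis, D distal and P proximal, by label), with open points for the libraries labelled distal 3 and proximal 1 and a bar at the mean of each label. Tbx3 lies near 9.7 in D1, D2 and P1 and near 11.7 in D3, P2 and P3, while the other genes span at most 1.22 units.

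The upstream sequences of 5 of the 8 genes are shown, those with a window among the RefSeq promoters used here. Whether the sequences bear on the order of the libraries, given next, was not tested. Meis1 and Meis2 had their highest value in the library labelled distal 2 and their lowest in that labelled proximal 3. Nkx2-3, Foxf2 and Barx1 had their highest value in the library labelled distal 3 and their lowest in that labelled distal 2. Each sequence is the 250 bases before the annotated start, from RefSeq on GRCm38.p6, read 5′ to 3′ on the strand of the gene. Meis1 lies at chr11:19018970-19019219 on the minus strand, and Meis2 at chr2:116064620-116064869 on the minus strand. Nkx2-3 lies at chr19:43612075-43612324, Foxf2 at chr13:31625566-31625815 and Barx1 at chr13:48662786-48663035, all on the plus strand. Capitals mark matches to any of the 8 motifs listed after the sequences.
Meis1: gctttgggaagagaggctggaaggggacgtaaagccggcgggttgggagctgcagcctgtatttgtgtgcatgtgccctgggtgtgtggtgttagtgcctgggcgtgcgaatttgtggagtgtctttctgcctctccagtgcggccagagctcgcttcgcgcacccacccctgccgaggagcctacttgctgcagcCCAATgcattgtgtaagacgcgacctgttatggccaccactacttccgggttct
Meis2: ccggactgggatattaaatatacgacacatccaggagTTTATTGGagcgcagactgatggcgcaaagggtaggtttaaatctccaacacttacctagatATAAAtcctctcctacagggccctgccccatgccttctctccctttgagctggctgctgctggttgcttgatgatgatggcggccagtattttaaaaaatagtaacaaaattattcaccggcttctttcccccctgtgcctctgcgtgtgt
Nkx2-3: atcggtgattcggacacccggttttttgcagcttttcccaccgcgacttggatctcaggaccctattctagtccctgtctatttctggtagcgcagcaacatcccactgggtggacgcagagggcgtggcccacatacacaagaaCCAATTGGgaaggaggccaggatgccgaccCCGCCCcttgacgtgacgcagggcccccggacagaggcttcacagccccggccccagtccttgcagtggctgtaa
Foxf2: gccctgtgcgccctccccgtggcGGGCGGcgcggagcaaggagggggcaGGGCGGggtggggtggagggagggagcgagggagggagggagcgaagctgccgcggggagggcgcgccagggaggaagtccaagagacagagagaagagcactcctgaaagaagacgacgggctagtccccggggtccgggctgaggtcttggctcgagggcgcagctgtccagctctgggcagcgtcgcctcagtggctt
Barx1: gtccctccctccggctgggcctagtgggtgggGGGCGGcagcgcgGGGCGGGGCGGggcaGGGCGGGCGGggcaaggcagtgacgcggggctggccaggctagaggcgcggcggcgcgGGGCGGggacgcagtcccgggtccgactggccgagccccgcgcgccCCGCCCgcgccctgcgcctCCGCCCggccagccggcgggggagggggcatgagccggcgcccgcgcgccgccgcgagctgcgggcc

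The motifs were searched on both strands, and their shares of 32851 promoter windows of this length follow each. They were the TALE core TGACAG (15.9%), the forkhead core GTAAACA (3.17%), the T-box element AGGTGT (11.8%), the NK2 core CACTTNA (10.1%) and the Gli site TGGGTGGTC (0.225%). The others were the posterior Hox core TTTAT (37.3%), the CCAAT box CCAAT (33.8%) and the GC box GGGCGG (32.7%). No window held a match to the TALE, forkhead, T-box, NK2 or Gli letters. The Meis2 window held 2 TTTAT matches, as 14.3% of windows hold at least 2, and 1 CCAAT match that overlaps one of them. The Meis1 window held 1 CCAAT match and no TTTAT. The Nkx2-3 window held 2 overlapping CCAAT matches and 1 GC box, and the Foxf2 window held 2 GC boxes. The Barx1 window held 8 GC boxes, some of them overlapping, a number reached by 0.155% of windows. Its G and C content was 85.6%, against 71.6% for Foxf2, 60.0% for Nkx2-3, 59.6% for Meis1, 47.6% for Meis2 and a median of 52.4%. These matches describe the letters only, and binding was not measured.

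Tbx3 encodes a T-box repressor needed for the development of limbs, mammary glands and heart. Its level was 9.70, 9.71 and 11.61 in distal-labelled libraries 1, 2 and 3, against 9.63, 11.78 and 11.79 in proximal-labelled libraries 1, 2 and 3. The values form a low set of distal 1, distal 2 and proximal 1 and a high set of distal 3, proximal 2 and proximal 3, so the labels overlap. As labelled, Tbx3 averaged 10.34 ± 1.10 in distal and 11.07 ± 1.24 in proximal libraries (SD, n = 3 each), a difference of -0.73 (SE 0.77, limma adjusted p = 0.832). That value was -0.41 without distal 1 or distal 2, -0.37 without proximal 2 or proximal 3, -1.36 without distal 3 and -1.44 without proximal 1. Without the libraries labelled distal 3 and proximal 1, the difference was -2.08 (SE 0.10, limma adjusted p = 0.000545), a level 4.23-fold lower in distal libraries, with a 95% interval of -2.34 to -1.82. It ranked 294 among 18193 genes by the size of that difference. In whole tissue, fewer cells that express a gene and less RNA per cell cannot be told apart.

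All 5 probe sets of Tbx3 were lower in distal 1 and 2 than in proximal 2 and 3, and each passed. The representing probe set, 1437479_x_at, is of a kind that can match other transcripts, so the others bear on its reading. Probe set 1448029_at measured 9.29, 9.48 and 11.63 in distal-labelled libraries 1, 2 and 3, against 9.59, 11.70 and 11.66 in proximal-labelled libraries 1, 2 and 3. Its 4-library difference was -2.30 (SE 0.12, limma adjusted p = 0.000668 over all probe sets). The remaining 3 differed by -1.46, -1.32 and -0.64, in order of falling signal, with adjusted p from 0.00361 to 0.0317. The dimmest, 1444594_at, lay between 3.61 and 4.56 in the 6 libraries, under 6.54, the lower quartile over genes, where background can make a difference look smaller.

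Leaving out any 1 of the 4 libraries gave Tbx3 differences between -2.08 and -2.07, each past the threshold with adjusted p from 0.0380 to 0.0487. Smooth muscle markers averaged 12.55, 12.71 and 12.69 in distal-labelled libraries 1, 2 and 3, against 12.62, 12.45 and 12.26 in proximal-labelled libraries 1, 2 and 3. Of 15 such markers 2 rose in distal libraries and 0 fell in the 4-library fit, and of 15 fibroblast markers 1 rose and 0 fell. Centred on these 2 marker lists, Tbx3 differed by -2.33 (limma adjusted p = 0.000267). That centring moved the median difference of all genes from -0.045 to -0.291. Of 11 markers of subepithelial myofibroblasts and telocytes, 4 fell in distal libraries and 0 rose. Their mean was 9.63, 9.47 and 9.85 in distal-labelled libraries 1, 2 and 3, against 9.87, 9.91 and 9.91 in proximal-labelled libraries 1, 2 and 3. Of 6 markers of interstitial cells of Cajal, the pacemaker cells of gut muscle, 2 rose, of 8 adipocyte markers 3 fell, and of 9 small intestinal markers 8 fell. Of 13 leukocyte markers 5 fell and 2 rose. All these counts stand beside 11.5% of all genes lower and 7.71% higher in distal libraries in the 4-library fit. The small intestinal mean was 8.79, 8.86 and 10.64 in distal-labelled libraries 1, 2 and 3, against 8.82, 10.90 and 10.84 in proximal-labelled libraries 1, 2 and 3, the same split as Tbx3. The means of the epithelium, colon, enteric glia, mesothelium and adipocyte lists had this split too. Without the gene of widest span in each list, the epithelium and colon means kept it and the others lost it. Without Ednrb, the glia mean was 8.21 in distal 1 and 8.2 in proximal 3. Without Muc16, the mesothelium mean was 7.27 in distal 2 and 7.17 in proximal 2 and 3. Without Cidec, the adipocyte mean was 10.17 in proximal 1 and 9.99 in proximal 3. The epithelium mean was 13.98, 14.10 and 14.23 in distal-labelled libraries 1, 2 and 3, against 14.04, 14.22 and 14.23 in proximal-labelled libraries 1, 2 and 3. Of 10 epithelium markers 2 fell and 0 rose, and of 9 colon markers 4 fell and 0 rose. The part of these cell types in the Tbx3 difference was not tested.

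**Figure D2:**
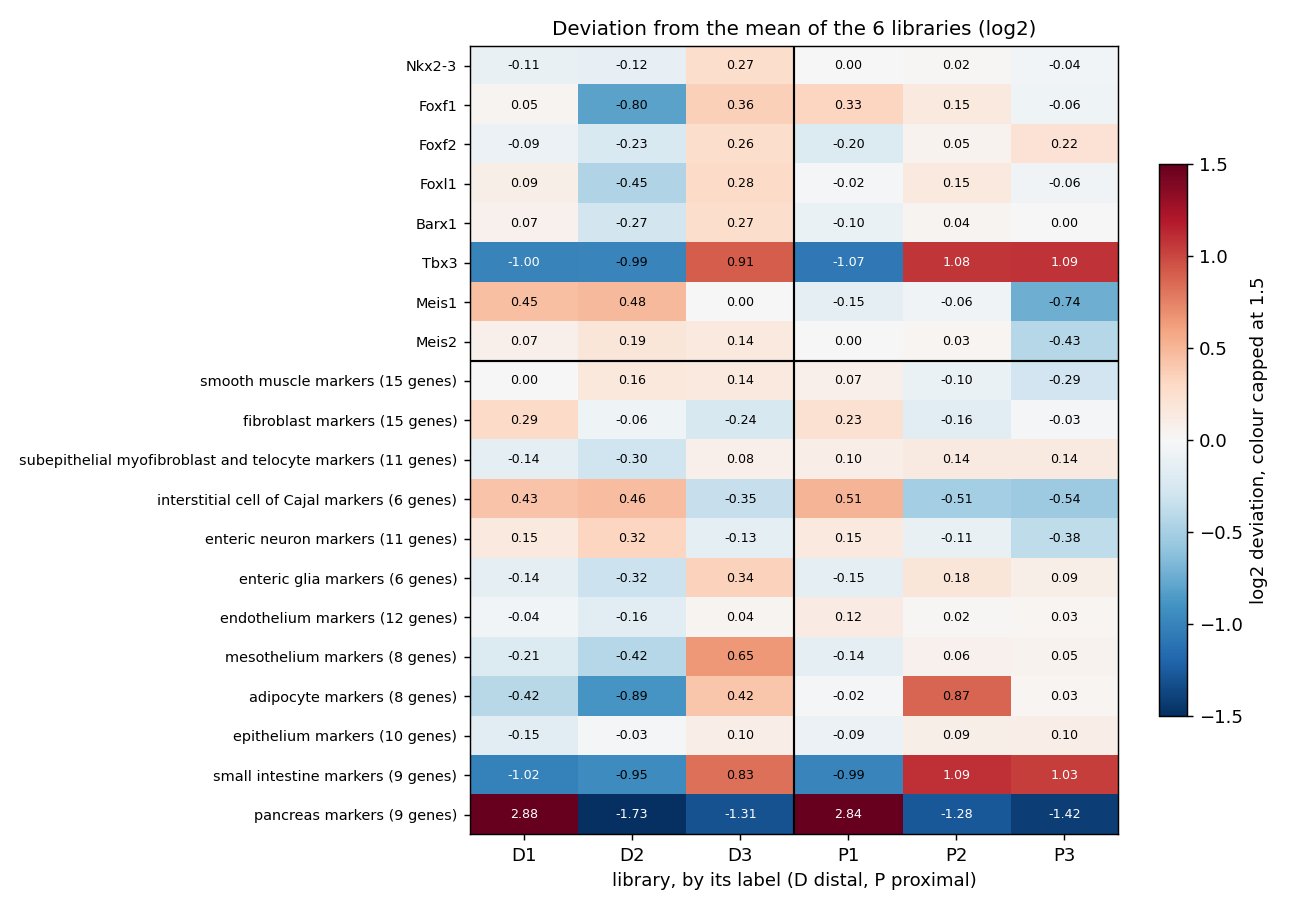
Deviation of each transcription factor, and of the mean of each marker list, from its own mean over the 6 libraries, in log2 units (colour and printed number), with libraries by label in columns. Tbx3 and the small intestinal markers share their low and high libraries, as do the epithelium, enteric glia, mesothelium and adipocyte means. The enteric glia, mesothelium and adipocyte means do so only with their gene of widest span included. Pancreas markers are high in D1 and P1, the libraries with means of 12.12 and 12.08.

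The genes whose pattern was most like Tbx3 over the 6 libraries were B4galnt4 (r = 0.998), St3gal5 (0.998) and Mal (0.998). B4galnt4 and St3gal5 encode glycosyltransferases, and Mal a membrane protein of apical sorting. They came from 2490 other genes that span at least 1 unit, of which 453 had r above 0.95 with Tbx3. Mal measured 8.62, 8.60 and 13.29 in distal-labelled libraries 1, 2 and 3, against 8.53, 13.30 and 13.29 in proximal-labelled libraries 1, 2 and 3. These correlations rest on 6 libraries that fall into separate sets, and are descriptions only.

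Meis1 encodes a TALE homeodomain protein that binds DNA with Hox and Pbx proteins. Its level was 8.57, 8.60 and 8.12 in distal-labelled libraries 1, 2 and 3, against 7.97, 8.06 and 7.38 in proximal-labelled libraries 1, 2 and 3. All 3 distal values lay above all 3 proximal values, with a gap of 0.06 between the library labelled distal 3 and that labelled proximal 2. As labelled, Meis1 averaged 8.43 ± 0.27 in distal and 7.80 ± 0.37 in proximal libraries (SD, n = 3 each), a difference of 0.63 (SE 0.23, limma adjusted p = 0.824). The 4-library difference was 0.87 (SE 0.23, 95% interval 0.28 to 1.45, limma adjusted p = 0.0571). It passed after quantile normalization (0.94, limma adjusted p = 0.0495), after median centring (0.95, 0.0483) and with a trended robust prior (0.87, 0.0333). It did not pass with the mean of its probe sets (0.28, 0.261) or centred on smooth muscle and fibroblast markers (0.62, 0.0767). Leaving out 1 of the 4 libraries gave 0.53 (without proximal 3) to 1.21 (without proximal 2), with limma adjusted p from 0.0909 to 0.271. Its other probe sets gave a smaller difference and one of opposite sign, and neither passed. Probe set 1450992_a_at measured 7.34, 7.36 and 7.68 in distal-labelled libraries 1, 2 and 3, against 7.50, 7.63 and 7.45 in proximal-labelled libraries 1, 2 and 3. Its 4-library difference was -0.19 (SE 0.12, limma adjusted p = 0.325), and that of 1459423_at was 0.15 (SE 0.18, 0.615).

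Meis2 encodes a close relative of Meis1. Its level was 10.29, 10.40 and 10.36 in distal-labelled libraries 1, 2 and 3, against 10.21, 10.24 and 9.79 in proximal-labelled libraries 1, 2 and 3. The labels did not overlap here either, although the library labelled distal 1 exceeded that labelled proximal 2 by only 0.05. As labelled, Meis2 averaged 10.35 ± 0.06 in distal and 10.08 ± 0.25 in proximal libraries (SD, n = 3 each), a difference of 0.27 (SE 0.15, limma adjusted p = 0.824), and the 4-library difference was 0.33 (SE 0.17, 95% interval -0.11 to 0.77, limma adjusted p = 0.249). That value was 0.11 without proximal 3, 0.56 without proximal 2 and 0.08 when centred on smooth muscle and fibroblast markers, and the 6-library value was 0.12 without proximal 3. Of the 8 genes, Meis1 and Meis2 were the 2 whose labels did not overlap, beside 1334 of 18193 genes (7.33%). That count fell to 0 with the mean of the probe sets of each gene, and to 0 when arrays were centred on smooth muscle and fibroblast markers.

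The probe sets of Meis2 also differed from one another. Probe set 1440091_at measured 10.59, 10.57 and 9.44 in distal-labelled libraries 1, 2 and 3, against 9.93, 9.59 and 9.10 in proximal-labelled libraries 1, 2 and 3. It was high in the libraries labelled distal 1 and 2, intermediate in proximal 1 and lower in the other 3. Its 4-library difference was 1.24 (SE 0.18, limma adjusted p = 0.00996 over all probe sets), and its 6-library difference 0.66 (adjusted p = 0.786). The other Meis2 probe sets, 1457632_s_at and 1447861_x_at, differed by 0.19 and 0.01 in the 4-library fit, with adjusted p of 0.363 and 0.983. Which transcripts or parts of Meis1 and Meis2 each probe set reads was not analysed here.

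**Figure D3:**
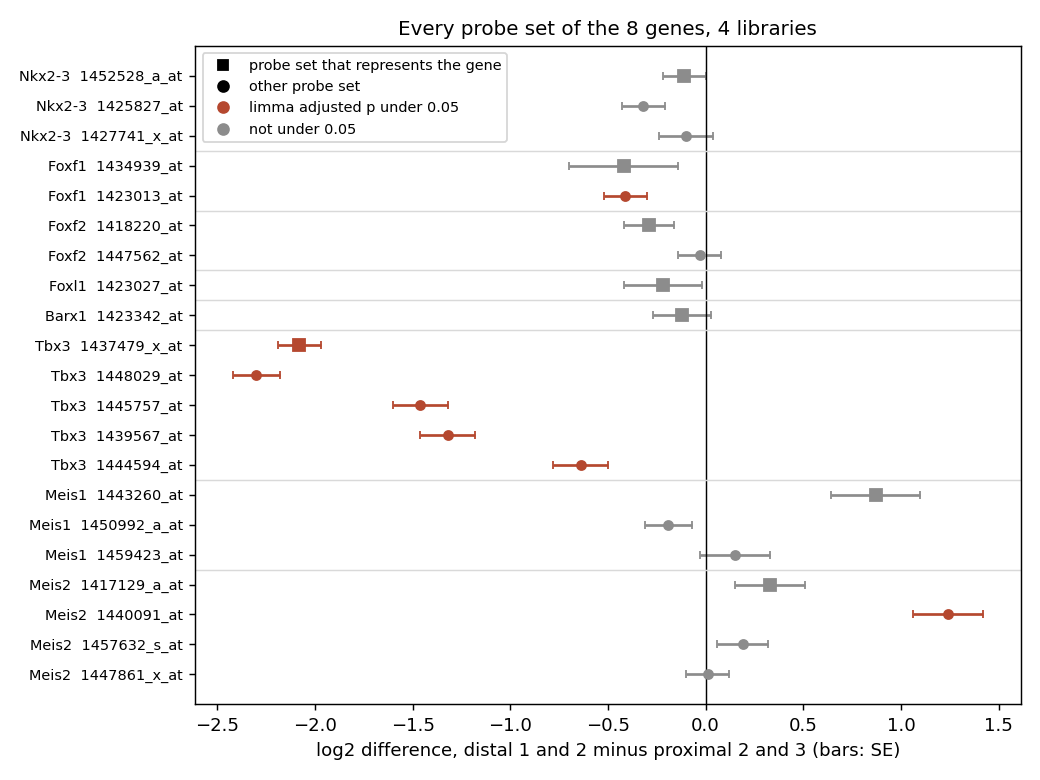
Difference between libraries labelled distal 1 and 2 and libraries labelled proximal 2 and 3 (log2, horizontal axis, bars SE) for each of the 21 probe sets of the 8 genes, with squares for the probe set that represents the gene and red for a limma adjusted p under 0.05. All 5 Tbx3 probe sets lie to the left of 0, and 1440091_at of Meis2 lies apart from the other Meis2 probe sets at 1.24.

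The gene whose pattern was most like Meis1 over the 6 libraries was Elavl3, which encodes an RNA-binding protein of neurons (r = 0.954). Elavl3 measured 8.23, 8.20 and 7.50 in distal-labelled libraries 1, 2 and 3, against 7.48, 7.51 and 7.12 in proximal-labelled libraries 1, 2 and 3. Next came Abca13 (0.939) and Ptger3 (0.939), a transporter and a prostaglandin receptor. Of 11 enteric neuron markers 4 rose in distal libraries and 0 fell in the 4-library fit, beside 7.71% of all genes that rose. Elavl3 is itself on that list, so the list is not independent of the likeness. The mean of that list was 9.22, 9.39 and 8.94 in distal-labelled libraries 1, 2 and 3, against 9.22, 8.96 and 8.69 in proximal-labelled libraries 1, 2 and 3. The part of neurons in the Meis1 values was not tested.

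Nkx2-3, Foxf1, Foxf2, Foxl1 and Barx1 shared the ends of their order. In each, the library labelled distal 3 was highest and that labelled distal 2 lowest, an order that holds in 6.66% of all genes. This was seen after the values were known. After median centring it held for Foxf1, Foxl1 and Barx1, beside 5.37% of genes, and after quantile normalization also for Nkx2-3, beside 5.27%. The library labelled distal 3 stayed highest in these 5 genes under both scalings, beside 13.7% of all genes after median centring and 13.4% after quantile normalization. As deposited, it was highest in 15% of all genes, and the library labelled distal 2 was lowest in 28.2%. Of the 16 marker lists, the means of the enteric glia, mesothelial and stomach lists had the same ends. The mesothelial mean was 7.20, 6.98 and 8.05 in distal-labelled libraries 1, 2 and 3, against 7.27, 7.47 and 7.46 in proximal-labelled libraries 1, 2 and 3. That order rested on Muc16, without which the mean was 7.27 in the library labelled distal 2 and 7.17 in those labelled proximal 2 and 3. The enteric glia mean was 8.56, 8.38 and 9.04 in distal-labelled libraries 1, 2 and 3, against 8.55, 8.88 and 8.79 in proximal-labelled libraries 1, 2 and 3. The order held in 4 of 6 single glia markers, 1 of 8 mesothelial markers and 3 of 9 stomach markers. The stomach mean was 5.71, 5.36 and 5.72 in distal-labelled libraries 1, 2 and 3, against 5.59, 5.70 and 5.54 in proximal-labelled libraries 1, 2 and 3. Every stomach mean lay below 6.54, the lower quartile of gene values, and distal 3 and distal 1 were nearly equal. Among the lists of related genes, the mean of the other mesenchymal and visceral transcription factors had these ends, but not without Osr2. The order held in 5 of its 44 genes. The part of any cell type in the order was not tested.

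Nkx2-3 is expressed in gut mesenchyme and is needed in mice for MAdCAM-1 on the vessels of gut lymphoid tissue. Its level was 7.93, 7.92 and 8.31 in distal-labelled libraries 1, 2 and 3, against 8.04, 8.06 and 8.0 in proximal-labelled libraries 1, 2 and 3. It had the smallest span of the 8 genes, 0.39, and 33.1% of all genes had a smaller one. As labelled the difference was 0.02 (SE 0.13, limma adjusted p = 0.972), and the 4-library difference was -0.11 (SE 0.10, 95% interval -0.37 to 0.16, limma adjusted p = 0.532). Its target Madcam1 measured 6.98, 7.19 and 6.84 in distal-labelled libraries 1, 2 and 3, against 7.08, 7.15 and 6.81 in proximal-labelled libraries 1, 2 and 3. Madcam1 did not pass either (0.11, SE 0.16, limma adjusted p = 0.694).

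Foxf1 and Foxf2 encode related forkhead proteins that respond to hedgehog signals and shape gut muscle and stroma. Foxf1 measured 11.15, 10.30 and 11.46 in distal-labelled libraries 1, 2 and 3, against 11.43, 11.25 and 11.04 in proximal-labelled libraries 1, 2 and 3. The library labelled distal 2 stood 0.74 below the next lowest, and the labels overlapped. As labelled the difference was -0.27 (SE 0.30, limma adjusted p = 0.838). The 4-library difference was -0.42 (SE 0.29, 95% interval -1.14 to 0.30, limma adjusted p = 0.364), and it was 0.01 without the library labelled distal 2, -0.84 without distal 1 and -0.67 when centred on smooth muscle and fibroblast markers. The other Foxf1 probe set, 1423013_at, measured 6.61, 6.61 and 7.30 in distal-labelled libraries 1, 2 and 3, against 6.62, 7.02 and 7.03 in proximal-labelled libraries 1, 2 and 3. It had the low and high libraries of Tbx3, near the lower quartile of gene values, and its 4-library difference was -0.41 (SE 0.11, limma adjusted p = 0.0473 over all probe sets). The genes most like Foxf1 over the 6 libraries were Arf5 (r = 0.990), Prcp (0.986) and Myc (0.978), which are also lowest in the library labelled distal 2.

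Foxf2 measured 8.09, 7.95 and 8.44 in distal-labelled libraries 1, 2 and 3, against 7.98, 8.23 and 8.40 in proximal-labelled libraries 1, 2 and 3. Leaving aside the pair at odds with their labels, both distal values lay below both proximal values. As labelled the difference was -0.04 (SE 0.17, limma adjusted p = 0.95), and the 4-library difference was -0.29 (SE 0.12, 95% interval -0.60 to 0.01, limma adjusted p = 0.157). Centred on smooth muscle and fibroblast markers it was -0.54 and passed (limma adjusted p = 0.0249), where the median difference of all genes moved to -0.291. Its other probe set, 1447562_at, lay between 5.55 and 5.71 and differed by -0.03 (SE 0.11, 0.877).

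Foxl1 measured 6.06, 5.52 and 6.25 in distal-labelled libraries 1, 2 and 3, against 5.95, 6.12 and 5.91 in proximal-labelled libraries 1, 2 and 3. All 6 values lay below 6.54, the lower quartile of gene values, where background can make a difference look smaller. As labelled the difference was -0.05 (SE 0.20, limma adjusted p = 0.95), and the 4-library difference was -0.22 (SE 0.20, 95% interval -0.74 to 0.29, limma adjusted p = 0.497). Without the library labelled distal 2 it was 0.05.

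Barx1, which in the mouse embryo marks stomach mesenchyme and promotes the Wnt antagonists Sfrp1 and Sfrp2 there, measured 7.38, 7.04 and 7.58 in distal-labelled libraries 1, 2 and 3. Its proximal values were 7.21, 7.35 and 7.31 in proximal-labelled libraries 1, 2 and 3, inside the distal range. As labelled the difference was 0.04 (SE 0.16, limma adjusted p = 0.944), and the 4-library difference was -0.12 (SE 0.15, 95% interval -0.49 to 0.25, limma adjusted p = 0.619). Without the library labelled distal 2 it was 0.05. Sfrp1 and Sfrp2 rose in distal libraries in the 4-library fit, by 0.86 (SE 0.10, limma adjusted p = 0.00653) and 1.41 (SE 0.20, limma adjusted p = 0.0107). Sfrp1 measured 11.02, 11.06 and 9.95 in distal-labelled libraries 1, 2 and 3, against 10.99, 10.18 and 10.18 in proximal-labelled libraries 1, 2 and 3, so that its order of libraries was not that of Barx1.

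Genes around these factors were taken from 5 lists, in which 0 genes passed as labelled, and the counts below are from the 4-library fit, beside 19.2% of all genes. Leaving out 1 of those 4 libraries ended the call of the list genes named by rule in 47 of 64 cases. Of 19 measured hedgehog genes 1 rose and 1 fell in distal libraries, with a median difference of -0.01. Cdon, a hedgehog co-receptor, rose by 1.72 (SE 0.12, limma adjusted p = 0.00140), and by 0.99 with the mean of its probe sets (limma adjusted p = 0.0035). Ihh, the main hedgehog ligand of colonic epithelium, fell by 0.85 (SE 0.11, 0.00913). Ihh measured 10.36, 10.51 and 11.07 in distal-labelled libraries 1, 2 and 3, against 10.01, 11.25 and 11.33 in proximal-labelled libraries 1, 2 and 3, the low and high libraries of Tbx3. The pathway's target genes Gli1 (0.06, SE 0.12, limma adjusted p = 0.751) and Ptch1 (0.27, SE 0.11, 0.132) did not pass. Foxf1, Foxf2 and Foxl1, also hedgehog targets, did not pass either by their representing probe sets, as given above. The other Foxf1 probe set, 1423013_at, did pass (-0.41, limma adjusted p = 0.0473 over all probe sets), with the low and high libraries of Tbx3.

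Of 15 TALE relatives 1 rose and 1 fell, with a median of -0.10. Pbx3, a Hox and Meis partner, rose by 0.66 (SE 0.11, limma adjusted p = 0.0152), and by 0.42 (0.0391) when centred on smooth muscle and fibroblast markers. The Iroquois gene Irx4, whose values lie below the lower quartile, fell by 1.30 (SE 0.14, 0.00490). Meis3 differed by -0.33 (SE 0.11, limma adjusted p = 0.0942). Of 35 forkhead, NK, Bar and T-box relatives 5 rose and 1 fell, with a median of 0.06. Those named by rule are Foxp2 (1.24, SE 0.14), Foxp1 (0.92, SE 0.12), Nkx2-2 (1.17, SE 0.16), a factor of enteroendocrine cells, and Foxq1 (2.27, SE 0.31), with limma adjusted p from 0.00512 to 0.00991. The 1 that fell was Tbx21, the T-box factor of type 1 immune cells (-1.60, SE 0.28, limma adjusted p = 0.0193). Tbx2, the closest relative of Tbx3, differed by -0.36 (SE 0.16, limma adjusted p = 0.192), with values of 6.41, 6.47 and 6.86 in distal-labelled libraries 1, 2 and 3, against 6.60, 6.59 and 7.0 in proximal-labelled libraries 1, 2 and 3.

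**Figure D4:**
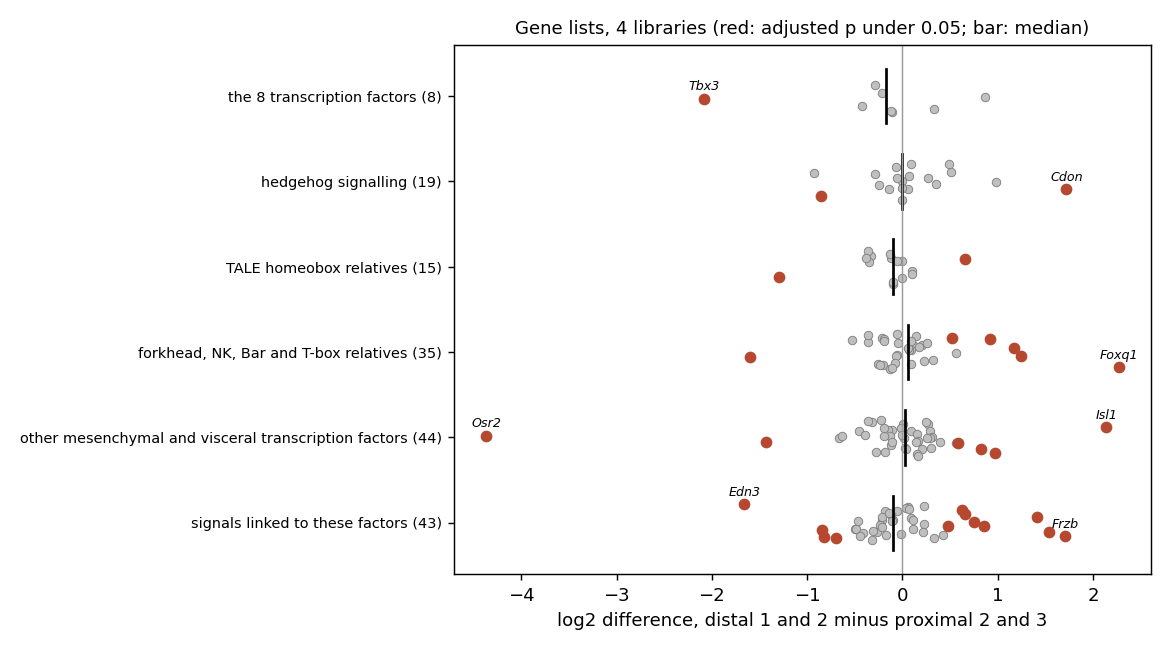
Difference between libraries labelled distal 1 and 2 and libraries labelled proximal 2 and 3 (log2, horizontal axis) for the 8 transcription factors and 5 lists of related genes, 1 point a gene, with red for a limma adjusted p under 0.05 and a bar at the median of each list. Tbx3 lies at -2.08 and Osr2 at -4.37, and the list medians lie between -0.10 and 0.06.

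Of 44 other mesenchymal and visceral transcription factors 4 rose and 2 fell in distal libraries, with a median of 0.02. Osr2, a zinc finger factor of mesenchyme, fell by 4.37 (SE 0.20, limma adjusted p = 0.000486), and the mean of its probe sets differed by -2.61 (limma adjusted p = 0.000667). Its level was 6.29, 5.73 and 10.21 in distal-labelled libraries 1, 2 and 3, against 5.97, 10.31 and 10.46 in proximal-labelled libraries 1, 2 and 3. Osr2 thus had the low and high libraries of Tbx3, with its low values below the lower quartile of genes. Gata5, a factor of gut epithelium, fell by 1.43 (SE 0.14, 0.00377), while Isl1, a factor of endocrine cells and neurons, rose by 2.14 (SE 0.19, 0.00308) and Runx1t1 by 0.97 (SE 0.17, 0.0180).

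Of 43 signalling genes linked to these factors 8 rose and 4 fell, with a median of -0.10. The Wnt antagonist Frzb rose by 1.71 (SE 0.12, limma adjusted p = 0.00168) and the BMP antagonist Grem1 by 1.54 (SE 0.15, 0.00383). Frzb, Sfrp1 and Sfrp2 bind Wnt proteins outside the cell. The receptor Fgfr2 fell by 0.82 (SE 0.11, limma adjusted p = 0.00897). Bmp4, a hedgehog response gene linked to Foxf proteins in mice, rose by 0.66 (SE 0.12, limma adjusted p = 0.0218), and Rspo3, a Wnt enhancer, rose by 0.75 (SE 0.14, limma adjusted p = 0.0244). Wnt5a, a stromal Wnt ligand, fell by 0.70 (SE 0.15, limma adjusted p = 0.0339). The others of the 4 that fell were Id3, by 0.84 (SE 0.12, limma adjusted p = 0.00973), and Edn3, by 1.66 (SE 0.29, 0.0181). Bmp2 rose by 0.62 (SE 0.11, limma adjusted p = 0.0217) and Pdgfa by 0.48 (SE 0.11, 0.0351). Sfrp4 differed by -0.49 (SE 0.13, limma adjusted p = 0.0514) and did not pass. Wnt5a measured 8.91, 8.55 and 9.51 in distal-labelled libraries 1, 2 and 3, against 9.52, 9.39 and 9.46 in proximal-labelled libraries 1, 2 and 3, and here the library labelled proximal 1 lay with proximal 2 and 3 and with distal 3. Wnt5a is also 1 of the 4 telocyte markers that fell.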

How the data were processed

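Per the labels, total RNA was extracted with Trizol, amplified with NuGEN kits, biotinylated and hybridised to 6 single-colour arrays. The deposited log2 values are RMA values from Partek 6.5, per the submitters' processing notes; its settings were not given in the sources used. RMA equalises the arrays, so a change shared by most genes would be missed. Of 45101 probe sets, 34945 carry 1 gene; symbols were updated by gene identifier (RefSeq, GRCm38.p6). Genes were tested with limma 3.58.1 in R 4.3.3 (eBayes defaults, two-sided, Benjamini-Hochberg over all genes, threshold 0.05), and all probe sets likewise in a fit of their own. The calculation was tested on simulated data. Labels do not say which libraries share an animal, so p-values reflect only the spread among these libraries. The members, gene lists, tests, 4-library fit and alternatives were chosen with earlier results of these data known; list genes were named by smallest p, up to 4 a list. Madcam1, Sfrp2, Sfrp4, Gli1, Ptch1, Meis3, Tbx2, Tbx21, Bmp2, Bmp4, Rspo3, Wnt5a, Id3, Edn3, Pdgfa and the motifs were chosen after values or windows were seen. Likeness is Pearson's r over 6 libraries.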

Additional observations from a re-analysis of the deposited data

How the results depend on the processing

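As labelled, limma called 0 of the 8 genes and 0 of all genes under every alternative run, including the replicate block (0 called). Whether the numbers in the labels pair the libraries could not be decided. Deviations from the label means correlated at 0.677 for number 1, -0.448 for number 2 and 0.678 for number 3. They hold the split of the libraries labelled distal 3 and proximal 1 from their labels, so they cannot show whether animals are shared. No blocked fit was possible with 4 libraries, because no residual degree of freedom remains. Small uncalled 6-library differences changed sign. Quantile normalization gave Foxf2 0.03, and median centring gave Foxf2 0.02 and Foxl1 0.01. Centring on smooth muscle and fibroblast markers gave Nkx2-3 -0.08 and Barx1 -0.05, and the mean of probe sets gave Nkx2-3 -0.03. Single probe sets gave Nkx2-3 -0.08 and -0.04, Foxf2 0.02, Meis2 -0.05 and Meis1 -0.07. Leaving out 1 library gave ranges of -0.11 to 0.09 for Nkx2-3, -0.51 to 0.07 for Foxf1, -0.18 to 0.06 for Foxf2, -0.20 to 0.16 for Foxl1 and -0.08 to 0.19 for Barx1.

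In the 4-library fit Tbx3 was called under every alternative run. The number of the 8 genes called was 2 after quantile normalization, median centring and the trended robust prior (Tbx3 and Meis1) and 2 after centring on smooth muscle and fibroblast markers (Tbx3 and Foxf2). Leaving out 1 of the 4 libraries gave 1633 genes called without distal 1, 405 without distal 2, 165 without proximal 2 and 146 without proximal 3, and ranges of -0.84 to 0.01 for Foxf1, -0.49 to 0.05 for Foxl1 and -0.29 to 0.05 for Barx1. The lone library of a label was then assumed to vary like the other pair. The named list genes kept their direction, but 47 of 64 such fits lost the call, Osr2 in none. Centring on the marker lists called 6422 genes, 12.5% of them higher in distal libraries, and an adjusted p of 0.01 called 1112. Probe set 1450992_a_at turned Meis1 to -0.19; the cause was not tested. In genes near background, such as Foxl1, a difference may be understated.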
